A study of Homo sapiens with 6 samples.

Results

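Solute carriers are membrane proteins that move sugars, ions, metals, vitamins and metabolites into and out of cells and organelles. They either follow a gradient or spend the gradient of a second ion, and each family shares a fold and often a substrate. Prostate epithelium is known for holding zinc and secreting citrate, so zinc and citrate carriers have a particular place in this tissue.

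The 181 solute carrier genes described here are those of the 12768 genes in the table whose symbol matches a solute carrier or SLCO name, of 193 that match, after 12 were left out by name, most of them amino acid carriers. The rule uses symbols and no measured value, although it was written with earlier results of these data known. The rule leaves some carriers of amino acids, amines and peptides in place (19 genes), so the set is not free of amino acid transporters, and the counts are given with and without them. Genes were placed in 13 substrate classes by family, with exceptions for single genes.

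RNA was sequenced from LNCaP, an androgen-responsive human prostate cancer cell line. Every culture carried, by stable transfection, a hairpin RNA that doxycycline switches on and that targets PRMT5, which places most symmetric dimethyl marks on arginine. The PRMT5 KD group had doxycycline for 4 days (3 cultures), and the No KD group grew for 4 days with none (3 cultures). The labels list no culture with doxycycline and no PRMT5 hairpin, so knockdown and doxycycline cannot be told apart, and nothing in the labels says whether the line is 1 clone. The series calls the cultures biological replicates.

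Libraries held 10554094, 10559371 and 15831938 reads after knockdown, against 10826534, 9870850 and 7911853 without it. PRMT5 itself had 9.69, 10.8 and 10.6 CPM (read counts scaled to library size by TMM) in PRMT5 KD cultures, against 88.7, 91.96 and 82.8 CPM in No KD cultures, a log2 fold change of -3.08 (SE 0.094, edgeR adjusted p = 1.37e-07). The 8 luminal markers of LNCaP used here were all measured, with summed levels of 4209 to 4271 CPM after knockdown and 4354 to 4391 CPM without it. Of markers of other cells, 2 of 3 for fibroblasts, 1 of 2 for endothelium, 0 of 2 for leukocytes and 0 of 2 for basal cells had a row, with summed fibroblast levels of 19.8 to 22.3 CPM after knockdown and 16.3 to 24.8 CPM without it.

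With no replicate term in the fit, few solute carriers passed the threshold. Those that did fell to between 0.66 and 0.76 of their level without knockdown. With the replicate number as a block, more passed, and in both directions. By edgeR's quasi-likelihood test, with p-values adjusted over all 12768 genes and a threshold of 0.05, 4 of the 181 members were lower after knockdown and 0 were higher. That is 2.21% of members lower, beside 1.14% of all genes lower and 0.337% higher. At an unadjusted p under 0.05, 24 members were lower (13.3%) and 12 higher (6.63%), beside 8.84% and 5.19% of all genes. DESeq2 called 6 members lower and 2 higher, of 303 genes called in all, and limma-voom 3 and 0, of 182. The 4 were the lactate carrier SLC16A1, the glutamate carrier SLC1A1, the sugar-carrier relative SLC35A5 and the organelle carrier SLC25A17. With the replicate number as a block, 14 members were lower (7.73%) and 10 higher (5.52%), beside 5.1% and 3.21% of all genes. Of the 8 luminal markers, 0 passed without the block and 4 were lower with it (KRT18, KLK2, TMPRSS2 and KLK3), and their part in the solute carrier counts was not tested. Each of the 4 lost its call without PRMT5 KD replicate 1 or 3 or without No KD replicate 1 or 3, so the count of lower members was 0 in each of those fits.

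As a set, the members were centred on no change. Their median log2 fold change was -0.0010, beside -0.0021 for all genes, with 90 members above 0 and 91 below. The range ran from -1.08 (SLC22A10) to 0.57 (SLC25A21), and 7 members differed by more than 0.5 on the log2 scale. Without the 19 amino acid, amine and peptide carriers, 3 of 162 members were lower (1.85%) and 0 higher, beside 1.14% and 0.337% of all genes. With the block, 11 were lower (6.79%) and 10 higher (6.17%), beside 5.1% and 3.21%. The members' summed level was 12335, 12050 and 12127 CPM after knockdown, against 12346, 12249 and 12407 CPM without it, so the total level of these transcripts differed by only a few percent between any of the libraries. In such bulk libraries, fewer cells of a type and less RNA per cell cannot be told apart.

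**Figure D1:**
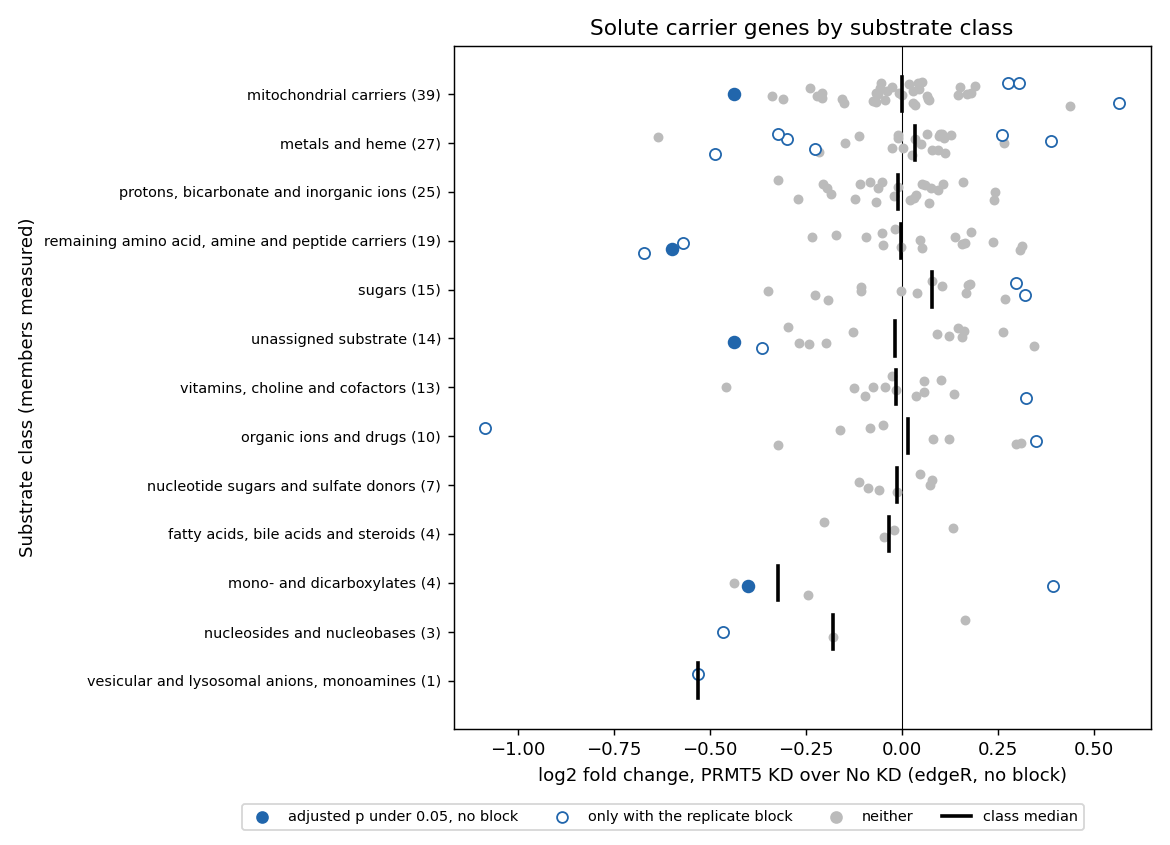
Log2 fold change (PRMT5 KD over No KD, edgeR without the block) of the 181 solute carrier genes by substrate class, 1 point a gene, with the class median as a black bar. Filled points passed an adjusted p of 0.05 and open points passed only with the replicate block; the class medians lie within 0.1 of 0, other than those of mono- and dicarboxylates, nucleosides and the class of 1 gene.

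The groups of libraries did not overlap for 27 members lower after knockdown (14.9%) and 12 higher (6.63%), beside 11.6% and 8.22% of all genes. All 3 numbered pairs moved the same way for 76 members (41.99%), beside 43.7% of all genes. Replicate 2 stood apart in both groups at once for many members. It was the highest library of both groups for 32 members (17.7%) and the lowest of both for 48 (26.5%), beside 23.2% and 23.5% of all genes.

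Monocarboxylate carriers moved in opposite directions. SLC16A1 encodes MCT1, the proton-coupled carrier of lactate and pyruvate across the plasma membrane. It lies on chromosome 1 (112911847 to 112957013, minus strand, GENCODE 29, GRCh38). SLC16A1 had 76.5, 82.0 and 81.2 CPM in PRMT5 KD cultures, against 100.7, 109 and 107 CPM in No KD cultures. Every knockdown library lay below every library without knockdown, and the replicates of a group sat close together. Its level fell to 79.9 ± 2.98 CPM, against 105 ± 4.29 CPM without knockdown (SD, n = 3 each), which on the log2 scale is -0.40 (SE 0.073, edgeR adjusted p = 0.028).

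SLC16A7 encodes MCT2, a relative of MCT1 with a higher affinity for pyruvate and lactate. SLC16A7, on chromosome 12 (59596067 to 59789855, plus strand), had 54.8, 62.3 and 57.1 CPM after knockdown, against 44.2, 45.6 and 42.7 CPM without it. Its groups did not overlap either, with all knockdown libraries above. The log2 difference of 0.39 (SE 0.083, edgeR adjusted p = 0.0501) lay just outside the threshold, and it passed with the block (adjusted p = 0.0052). Per kilobase of gene model, SLC16A1 stood at 17.1 CPM per kilobase after knockdown and 22.6 without it, and SLC16A7 at 4.68 and 3.56, so SLC16A1 stayed the more abundant transcript in both groups. SLC16A6 and the dicarboxylate carrier gene SLC13A3, the other 2 members of the class, had log2 fold changes of -0.24 and -0.44 at mean levels of 0.74 and 0.44 CPM per kilobase and passed in neither fit.

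**Figure D2:**
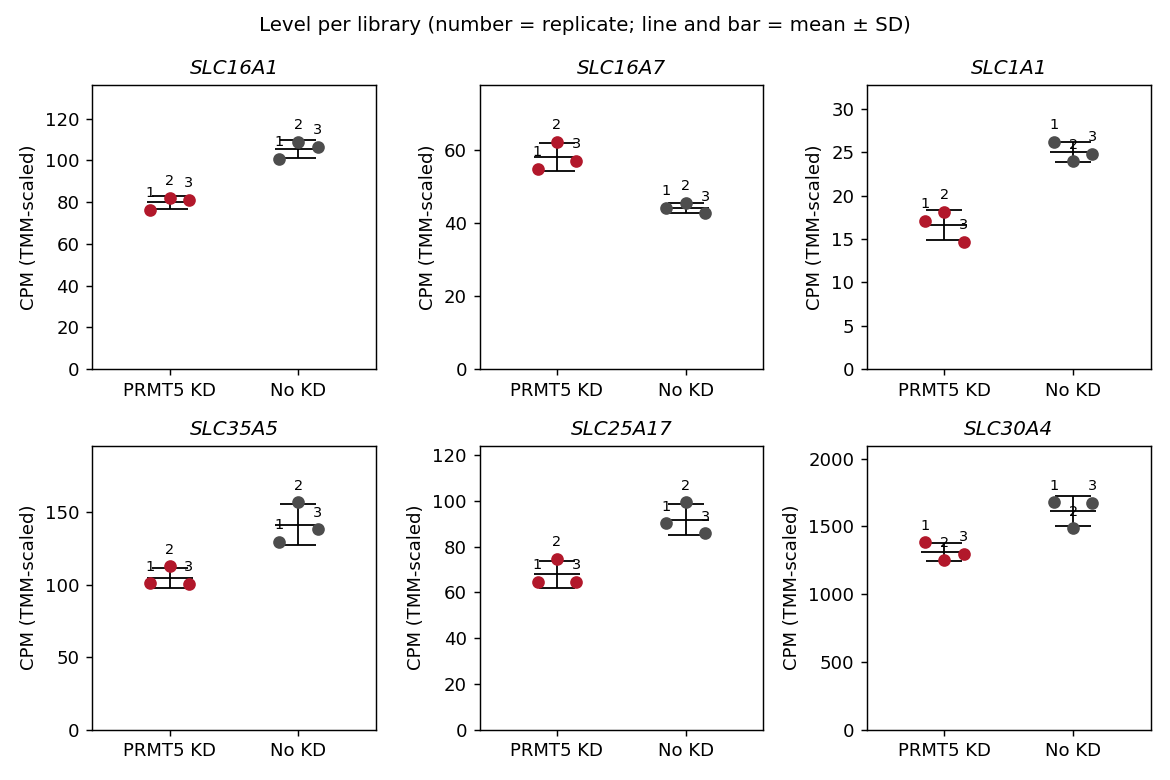
TMM-scaled CPM of 6 solute carrier genes in each library, PRMT5 KD left and No KD right, with the replicate number above each point and the mean ± SD of 3 libraries as a line and bar. In each of the 6 panels the groups do not overlap, and SLC16A7 is the one with the knockdown libraries above.

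SLC35A5 belongs to the family of nucleotide sugar carriers of the Golgi, and its own substrate is less settled. It lies on chromosome 3 (112561709 to 112585577, plus strand). SLC35A5 had 100.95, 113 and 100.4 CPM after knockdown, against 130, 157 and 138 CPM without it. The groups did not overlap, and replicate 2 was the highest library in both. On the log2 scale it fell by 0.44 (SE 0.089, adjusted p = 0.042), with means of 105 ± 6.88 CPM after knockdown and 141 ± 13.8 CPM without it (SD, n = 3 each). Among the 7 members classed as carriers of nucleotide sugars and sulfate donors, which feed glycosylation in the Golgi, none passed with or without the block, and 0 had an unadjusted p under 0.05. Their log2 fold changes ran from -0.11 (SLC35B4) to 0.08 (SLC35A3), the narrowest range among the classes with at least 7 members. SLC35A5 is not among these 7, since it was placed with the members of no assigned substrate. SLC35D2, a Golgi carrier of nucleotide sugars that the rule does not take, was lower (log2 fold change -0.69, edgeR adjusted p = 0.031). The class's other leading genes by level were SLC35B1, which brings ATP into the endoplasmic reticulum, and SLC35A3, with 68.4 ± 2.17 and 167 ± 7.28 CPM after knockdown, against 64.9 ± 1.71 and 158 ± 3.23 CPM without it.

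In GENCODE 29 the starts of SLC35A5 and ATG3 lie 337 bases apart on opposite strands. The 2 genes overlap between these starts, and their exons share 151 bases. ATG3, which conjugates LC3 to lipid in autophagy and was looked up after the values of SLC35A5 were seen, had 117, 102 and 114 CPM after knockdown, against 151, 140 and 154 CPM without it. It fell by 0.42 on the log2 scale (SE 0.079, adjusted p = 0.029), close to the change of SLC35A5. No source used here gives the strand setting of the counting, and reads from the shared bases cannot be assigned to one gene. Exon bases shared with another measured gene were found for 50 members, 5 of them called with the block. Besides SLC35A5 these were SLC25A21 (PAX9, 481 bases, and SLC25A21-AS1, 586), SLC30A4 (HMGN2P46, 215), SLC5A3 (MRPS6, 273) and SLC6A9 (CCDC24, 404). Of the members past the threshold in either fit, 1 other had a measured neighbour starting within 1000 bases on the opposite strand, SLC25A21 with SLC25A21-AS1, whose log2 fold change was -0.01 (adjusted p = 0.98).

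The stretch in front of a RefSeq start of SLC35A5 holds the E-box letters CACGTG, which MYC and TFEB family factors can bind. They are shown because SLC35A5 and its neighbour fell together and because 3 metal carriers called with the block carry them too. Of 145 members with a promoter in the RefSeq table (GRCh38.p14, 250 bases before to 50 after a start), 28 held CACGTG (19.3%), beside 12.7% of 9454 measured genes and 8.77% of all 27305 genes there. Of 19 members called with the block and in that table, 4 held it, and of 24 metal and heme members 3 did (12.5%), close to the share of measured genes. The windows below run 5′ to 3′ on the gene's strand, with the E-box in capitals; CACGTG reads the same on both strands.
SLC35A5, chr3:112561932-112561977, plus strand: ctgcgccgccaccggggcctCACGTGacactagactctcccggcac
SLC35A5, chr3:112561955-112562000, plus strand: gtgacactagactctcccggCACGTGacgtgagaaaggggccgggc
SLC41A2, chr12:104958697-104958740, minus strand: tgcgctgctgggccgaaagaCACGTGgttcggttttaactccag
SLC39A11, chr17:73092690-73092735, minus strand: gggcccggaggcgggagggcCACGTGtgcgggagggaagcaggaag
SLC39A8, chr4:102345525-102345570, minus strand: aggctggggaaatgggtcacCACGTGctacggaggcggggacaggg
SLC35A5, SLC41A2 and SLC39A11 were lower with the block and SLC39A8 was higher, so carriers of these letters did not share a direction. The letters TGATGNAA, the core of an element that ATF4 binds, were found in 5 of the 145 members (3.45%) on either strand, beside 2.57% of measured genes. The metal response letters TGCACNC or TGCGCNC were found in 11 of 24 metal and heme members (45.8%), beside 46.4% of measured genes. A match is a description of the letters and no evidence of binding.

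A 7-base sequence that was picked earlier on these same fold changes, TTCCCTA, was looked up in the members' 3′ UTRs. Of 176 members with a 3′ UTR of at least 50 bases, 21 carried it (11.9%), beside 11.1% of 11001 genes. Among the 21, 3 were lower with the block and 0 higher, SLC35A5, SLC22A10 and SLC7A2, while of the 155 without it 11 were lower and 10 higher. For all genes searched, 147 of 1223 with it were lower and 42 higher. These numbers repeat the fold changes that picked the sequence and are no separate support for it. Of the 4 members that fell without the block, SLC35A5 alone carried it. The sites of SLC35A5 and SLC22A10 are shown, with the 7 bases in capitals, as those of called members. SLC7A2, the other called carrier of it, has 2 matches, which are not shown here.
SLC35A5, chr3:112583406-112583412, plus strand: taaacattggTTCCCTAgtcaccatag
SLC22A10, chr11:63311144-63311150, plus strand: aagggtttttTTCCCTAcaaccagcaa
The coordinates are those of the capitals in GRCh38 (GENCODE 29).

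Among carriers of metals and heme, 27 genes, none passed without the block (6 had an unadjusted p under 0.05). With it, 4 were lower (14.8%) and 2 higher (7.41%), beside 5.1% and 3.21% of all genes. The class held the member with the highest level per kilobase of the 181, SLC30A4, which encodes ZnT4, a carrier that loads zinc into vesicles. The 12 carriers left out by name were not ranked. SLC30A4, on chromosome 15 (45479611 to 45522807, minus strand), had 1382, 1253 and 1295 CPM after knockdown, against 1676, 1485 and 1675 CPM without it. All knockdown libraries lay below all others, and the lowest library of each group was replicate 2. The log2 fold change was -0.30 (SE 0.082, adjusted p = 0.12, and 0.0070 with the block). Per kilobase it stood at 306 CPM after knockdown and 376 without it, ahead of the mitochondrial phosphate carrier gene SLC25A3, the next member, at 162 and 158.

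The zinc importer family, SLC39A, had 11 members and the zinc exporter family, SLC30A, had 7. With the block, 1 exporter was lower (14.3%), and 2 importers were lower (18.2%) and 1 higher (9.09%), beside 5.1% and 3.21% of all genes. SLC39A14, a carrier of zinc, iron and manganese, had 141, 115 and 138 CPM after knockdown, against 156, 143 and 162 CPM without it (log2 fold change -0.23, adjusted p = 0.31, and 0.036 with the block). SLC39A8, its close relative, had 484, 380 and 472 CPM after knockdown, against 375, 334 and 406 CPM without it, with overlapping groups (log2 fold change 0.26, adjusted p = 0.31, and 0.020 with the block). So these near relatives had opposite signs, with replicate 2 the lowest library of each group for both. SLC39A11, a Golgi zinc carrier, had 25.4, 24.9 and 23.5 CPM after knockdown, against 29.8, 30.8 and 31.5 CPM without it (adjusted p = 0.13, and 0.046 with the block).

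The zinc carrier genes SLC39A6 and SLC30A9 had nearly equal group means, unlike SLC30A4 and SLC39A8. SLC39A6, which encodes ZIP6, had 335 ± 10.4 CPM after knockdown and 334 ± 20.6 CPM without it (SD, n = 3 each), and SLC30A9 had 319 ± 14.03 and 321 ± 34.4 CPM, at log2 fold changes of 0.0035 and -0.0082. SLC39A1, which encodes ZIP1, an importer tied to zinc uptake in prostate cells, had 102, 110 and 99.6 CPM after knockdown, against 98.9, 97.4 and 91.97 CPM without it. Its knockdown libraries were all higher, yet the log2 fold change of 0.11 (SE 0.075) did not pass (adjusted p = 0.56). SLC30A1, the zinc exporter of the plasma membrane that metals induce, had 31.2 ± 3.86 CPM after knockdown and 29.02 ± 4.84 CPM without it (log2 fold change 0.10, adjusted p = 0.78).

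Of carriers for other metals, the magnesium carrier gene SLC41A2 had 16.1, 15.1 and 16.6 CPM after knockdown, against 22.1, 20.5 and 24.7 CPM without it. The groups did not overlap (log2 fold change -0.48, SE 0.11, adjusted p = 0.069, and 0.0086 with the block). SLC40A1 encodes ferroportin, the exporter of iron, and had 16.6, 21.8 and 19.0 CPM after knockdown, against 13.1, 16.9 and 13.8 CPM without it. Its groups overlapped by 1 library, and it was higher with the block (log2 fold change 0.39, adjusted p = 0.25, and 0.038 with the block).

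The family of mitochondrial carriers, with 39 genes the largest class, had 1 lower member without the block (2.56%), beside 1.14% of all genes. With the block, 1 was lower (2.56%) and 3 higher (7.69%), beside 5.1% and 3.21% of all genes. SLC25A17, on chromosome 22 (40769630 to 40819399, minus strand), is an unusual member of this family, since its protein lies in the peroxisome and carries coenzyme A, FAD and related cofactors. SLC25A17 had 64.5, 74.6 and 64.5 CPM after knockdown, against 90.2, 99.2 and 85.7 CPM without it. The groups did not overlap, and replicate 2 was the highest of both. The means were 67.8 ± 5.85 CPM after knockdown and 91.7 ± 6.89 CPM without it (SD, n = 3 each), or -0.44 on the log2 scale (SE 0.091, adjusted p = 0.047). This call was also lost with DESeq2's size factors, with a filter at a mean of 5 CPM and without No KD replicate 2.

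The 3 that were higher with the block carry amino acids and organic acids across the inner mitochondrial membrane. SLC25A29, a carrier of basic amino acids, had 94.3, 99.7 and 92.9 CPM after knockdown, against 77.8, 80.4 and 78.4 CPM without it, with narrow groups that did not overlap (log2 fold change 0.28, SE 0.071, adjusted p = 0.097, and 0.019 with the block). SLC25A21, the oxodicarboxylate carrier, had 30.3, 20.1 and 28.0 CPM after knockdown, against 17.0, 17.6 and 18.6 CPM without it. Knockdown replicate 2 was the nearest to the No KD group (log2 fold change 0.57, SE 0.15, adjusted p = 0.11, and 0.011 with the block). SLC25A10, the carrier that exchanges malate and succinate for phosphate, had 139, 129 and 117 CPM after knockdown, against 113, 90.6 and 108 CPM without it (log2 fold change 0.31, adjusted p = 0.19, and 0.021 with the block).

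Other mitochondrial carrier genes passed in neither fit, among them those named for phosphate, adenine nucleotides and citrate. The phosphate carrier gene SLC25A3 had 336, 329 and 324 CPM after knockdown, against 299, 361 and 308 CPM without it, so the No KD libraries spanned the knockdown ones (log2 fold change 0.03, adjusted p = 0.91). SLC25A5, an ADP/ATP carrier gene, had 131 ± 5.39 CPM after knockdown and 138 ± 15.2 CPM without it, and its relative SLC25A4 one of -0.04 on the log2 scale (adjusted p = 0.86). SLC25A1, which exports citrate from mitochondria, had 92.6 ± 2.00 CPM after knockdown and 88.4 ± 2.99 CPM without it (SD, n = 3 each), 0.07 on the log2 scale (adjusted p = 0.72).

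**Figure D3:**
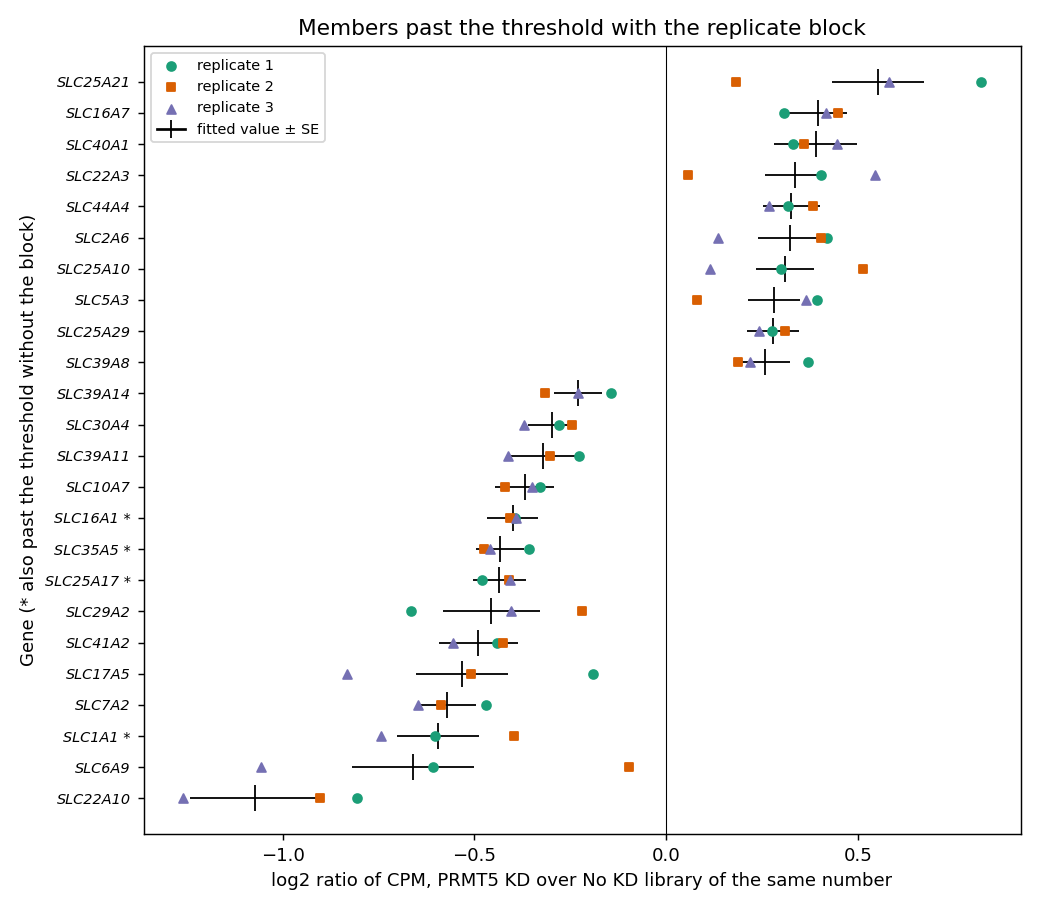
Log2 ratio of CPM between the PRMT5 KD and the No KD library of the same number (3 markers a gene) for the 24 members past an adjusted p of 0.05 with the replicate block, with the fitted value and its SE as a line. The 4 genes with an asterisk also passed without the block, and replicate 2 has a small ratio for SLC6A9, SLC22A3 and SLC5A3.

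Of the 15 carriers of sugars and related polyols, none passed without the block (3 had an unadjusted p under 0.05). With it, 2 were higher (13.3%) and 0 lower, beside 3.21% and 5.1% of all genes. The class median was 0.08 on the log2 scale. SLC2A6, which encodes the lysosomal hexose carrier GLUT6, had 59.5, 51.1 and 52.0 CPM after knockdown, against 44.4, 38.5 and 47.3 CPM without it, with groups that did not overlap (log2 fold change 0.32, adjusted p = 0.18, and 0.027 with the block). SLC5A3, the sodium-coupled carrier of myo-inositol, had 305, 213 and 316 CPM after knockdown, against 232, 202 and 245 CPM without it. Knockdown replicate 2 lay among the No KD libraries (log2 fold change 0.30, adjusted p = 0.41, and 0.019 with the block). SLC5A3 shares 273 exonic bases on its own strand with MRPS6.

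The glucose carrier genes SLC2A1 and SLC2A12 had lower values that passed in neither fit. SLC2A1, which encodes GLUT1, the glucose carrier of most dividing cells, had 30.6, 35.3 and 29.04 CPM after knockdown, against 36.5, 38.8 and 35.4 CPM without it. The nearest libraries of the groups nearly touched (log2 fold change -0.22, SE 0.10, adjusted p = 0.35). SLC2A12, which encodes GLUT12, a hexose carrier found in prostate, was the more abundant per kilobase, at 23.996 CPM per kilobase after knockdown and 27.4 without it, against 8.63 and 10.1 for SLC2A1. Its log2 fold change was -0.19 (SE 0.075, adjusted p = 0.29, and 0.068 with the block). SLC50A1, a sugar carrier of the SWEET family, and SLC37A3, a relative of the glucose-phosphate carriers, led the class by level with log2 fold changes of 0.11 and 0.04. SLC37A3 shows how replicate 2 stood apart: it had 89.5, 129 and 97.4 CPM after knockdown, against 90.3, 121 and 96.2 CPM without it.

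None of the 25 carriers of protons, bicarbonate, chloride, phosphate and other inorganic ions passed with or without the block, and 1 had an unadjusted p under 0.05. The median was -0.0081 and the range ran from -0.32 to 0.24 on the log2 scale. SLC12A2, which encodes the sodium, potassium and chloride cotransporter NKCC1, had 487, 677 and 505 CPM after knockdown, against 467, 654 and 506 CPM without it. Replicate 2 was the highest in both groups, and the numbered libraries matched closely (log2 fold change 0.04, SE 0.16, adjusted p = 0.94). SLC4A4, a sodium bicarbonate cotransporter gene, had 259 ± 20.1 CPM after knockdown and 255 ± 20.6 CPM without it (SD, n = 3 each). The proton exchanger gene SLC9A2 had the smallest p of the class, at 30.4, 27.2 and 35.5 CPM after knockdown, against 36.0, 35.7 and 41.3 CPM without it (log2 fold change -0.27, adjusted p = 0.33, and 0.060 with the block), and SLC9A8, an exchanger of the Golgi and endosomes, had -0.20 on the log2 scale (adjusted p = 0.375).

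Carriers of amino acids, amines and peptides that the rule kept, 19 genes, held 1 lower member (5.26%), beside 1.14% of all genes. With the block, 3 were lower (15.8%) and 0 higher, beside 5.1% and 3.21% of all genes. SLC1A1 encodes EAAT3, a sodium-coupled importer of glutamate, aspartate and cysteine, and lies on chromosome 9 (4490444 to 4587469, plus strand). SLC1A1 had 17.1, 18.1 and 14.7 CPM after knockdown, against 26.2, 23.96 and 24.8 CPM without it. The groups stood well apart. The level fell to 16.6 ± 1.77 CPM, against 25.01 ± 1.14 CPM without knockdown (SD, n = 3 each), or -0.60 on the log2 scale (SE 0.11, adjusted p = 0.030). This was the largest change among the 4 called members.

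SLC7A2 encodes the cationic amino acid carrier CAT2. It had 52.3, 35.2 and 45.6 CPM after knockdown, against 72.7, 53.0 and 71.6 CPM without it. Replicate 2 was the lowest library of both groups, and each knockdown library lay below its numbered partner (log2 fold change -0.57, SE 0.16, adjusted p = 0.15, and 0.000341 with the block). SLC6A9, the glycine carrier GlyT1, had 10.8, 8.21 and 8.67 CPM after knockdown, against 16.8, 8.81 and 18.6 CPM without it, where No KD replicate 2 lay within the knockdown range (log2 fold change -0.67, adjusted p = 0.28, and 0.020 with the block). At the class's highest levels per kilobase, SLC38A10 and the creatine carrier gene SLC6A8 had log2 fold changes of -0.05 and -0.17, and neither passed. Replicate 2 was the lowest library of both groups for 12 of the 19 genes and the highest of both for 1.

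Among 10 carriers of organic ions, hormones and drugs none passed without the block (2 had an unadjusted p under 0.05). With it, 1 was lower and 1 higher (10% each), beside 5.1% and 3.21% of all genes. SLC22A3, which encodes OCT3, a carrier of organic cations and monoamines, had 347, 258 and 357 CPM after knockdown, against 263, 248 and 245 CPM without it. Knockdown replicates 1 and 3 lay above every No KD library, and replicate 2 lay within that group (log2 fold change 0.35, SE 0.12, adjusted p = 0.20, and 0.019 with the block). SLC22A10, a relative of the organic anion carriers known mainly from liver, had 3.04, 6.62 and 2.70 CPM after knockdown, against 5.68, 12.8 and 7.15 CPM without it. Replicate 2 was the highest library of both groups, and its knockdown value lay within the No KD range (log2 fold change -1.08, SE 0.41, adjusted p = 0.29, and 0.0012 with the block). SLC22A5, the carnitine importer OCTN2, had 35.6 ± 1.74 CPM after knockdown and 39.8 ± 5.82 CPM without it (SD, n = 3 each).

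Of 13 carriers of vitamins, choline and cofactors, none passed without the block (2 had an unadjusted p under 0.05). With it, 1 was higher (7.69%), beside 3.21% of all genes. SLC44A4, which carries thiamine pyrophosphate and choline-related substrates, had 66.5, 78.2 and 60.5 CPM after knockdown, against 53.3, 59.9 and 50.2 CPM without it, with groups that touched but did not overlap (log2 fold change 0.33, SE 0.11, adjusted p = 0.21, and 0.013 with the block). Its relative SLC44A3 had 6.84, 7.74 and 7.004 CPM after knockdown, against 9.63, 8.81 and 11.3 CPM without it, and passed in neither fit (log2 fold change -0.46, adjusted p = 0.21, and 0.070 with the block). SLC44A2, a choline carrier, and SLC33A1, which brings acetyl coenzyme A into the endoplasmic reticulum, led the class by level and had log2 fold changes of 0.04 and -0.07. The folate carrier gene SLC19A1 had 18.05 ± 0.54 CPM after knockdown and 16.8 ± 2.47 CPM without it; it shares 1401 exonic bases with COL18A1 on the opposite strand.

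Nucleoside carriers were low in these cells. SLC29A2, an equilibrative carrier of nucleosides, had 11.2, 10.9 and 11.1 CPM after knockdown, against 18.1, 12.8 and 14.8 CPM without it. The groups did not overlap and the No KD libraries were the more scattered (log2 fold change -0.47, SE 0.15, adjusted p = 0.18, and 0.038 with the block). SLC29A1, the carrier of this kind most studied for nucleoside drugs, had 3.43 ± 0.41 CPM after knockdown and 3.87 ± 0.25 CPM without it, and the lysosomal SLC29A3 had 9.09 ± 1.27 and 8.11 ± 0.59 CPM (SD, n = 3 each), with adjusted p of 0.74 and 0.69 by edgeR.

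SLC17A5 encodes sialin, which releases sialic acid from lysosomes, and was the only measured member of its class. It had 20.8, 17.9 and 19.1 CPM after knockdown, against 23.8, 25.7 and 34.5 CPM without it. No KD replicate 3 was the highest by some distance (log2 fold change -0.53, SE 0.14, adjusted p = 0.11, and 0.013 with the block). The gene SLC10A7, which takes part in calcium handling and glycosylation in the secretory pathway, had 39.98, 36.4 and 43.3 CPM after knockdown, against 50.3, 48.8 and 55.3 CPM without it (log2 fold change -0.36, adjusted p = 0.099, and 0.0084 with the block). It was 1 of 14 members with no assigned substrate. Of these, 1 was lower without the block (7.14%) and 2 with it (14.3%), beside 1.14% and 5.1% of all genes. None of the 4 fatty acid carriers passed in either fit, with SLC27A1 at -0.20, SLC27A4 at 0.13 and SLC27A2 at -0.05 on the log2 scale.

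Levels differed far more between members than between groups. Mean levels over the 6 libraries ran from 0.44 (SLC13A3) to 341 (SLC30A4) CPM per kilobase, with a median of 8.72, beside 11.1 for all genes. By this mean over both groups, the order after SLC30A4 was SLC25A3 (160.1), SLC25A5 (99.3), SLC30A9 (98.1), SLC39A6 (90.9), SLC22A3 (88.3), SLC12A2 (79.3) and SLC39A8 (67.9). In the No KD libraries SLC25A5, SLC30A9 and SLC39A6 stood at 102, 98.4 and 90.7, and this order is not firm, since their ranges over the No KD libraries overlapped. By group means, SLC22A3 stood at 98.95 CPM per kilobase after knockdown, above SLC30A9, SLC25A5 and SLC39A6. Without knockdown it stood at 77.7, just below SLC12A2 at 78.3. These places are not firm either. In knockdown replicate 2 SLC22A3 stood at 79.5, below SLC30A9 (102), SLC25A5 (101) and SLC39A6 (91.3). In No KD replicates 1 and 3 it lay above SLC12A2, at 81.0 against 67.5 and 75.6 against 73.0. The lowest raw count of any member was 10 reads. Of the 8 most abundant members, 0 passed without the block, beside 1.14% of all genes lower and 0.337% higher. With the block 3 passed, SLC30A4 lower and SLC22A3 and SLC39A8 higher, beside 8.31% of all genes in either direction. These 8 were picked by level, and a link between level and calls was not tested.

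**Figure D4:**
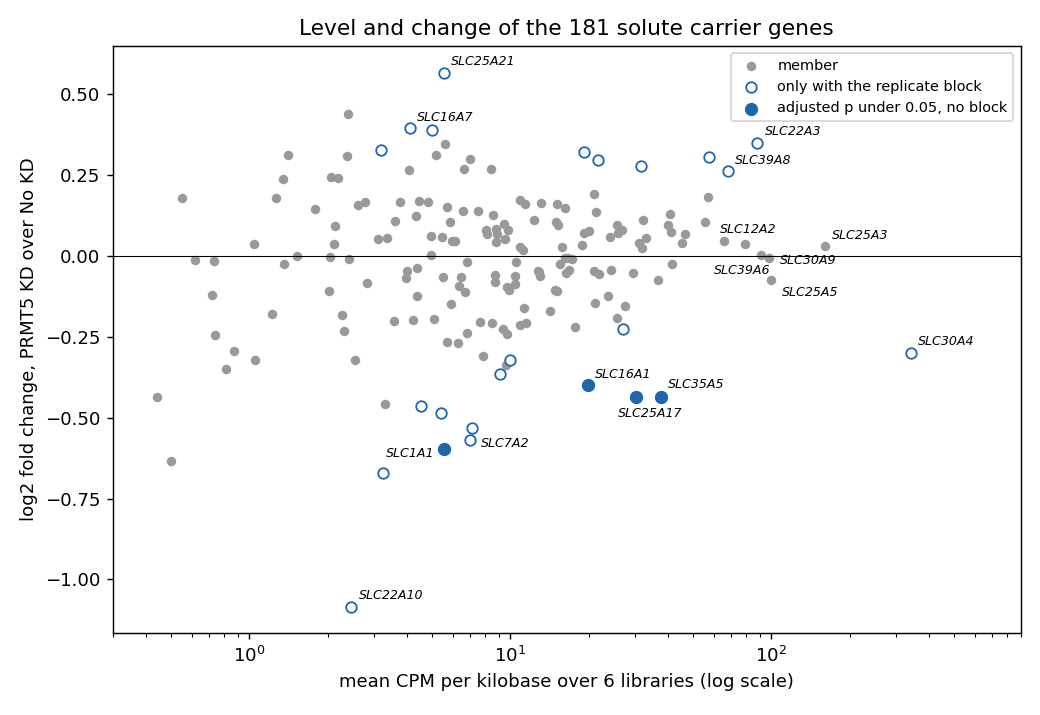
Mean level over the 6 libraries (CPM per kilobase, log axis) against log2 fold change (PRMT5 KD over No KD) for the 181 members, 1 point a gene. SLC30A4 stands alone at the high end with a fold change of -0.30, and SLC22A10, at 2.46 CPM per kilobase, has the largest negative value.

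Carriers and partners whose symbols the rule does not take were looked at beside the members. Of 40 listed, 38 were measured, at a median log2 fold change of -0.02. Of all genes, 1.14% were lower without the block and 5.1% with it. Of the 38, 1 was lower and 0 higher, with or without the block. The one was SLC35D2, a Golgi carrier of nucleotide sugars, at -0.69 (adjusted p = 0.031). Basigin (BSG) and embigin (EMB), the chaperones of MCT1 and MCT2, had log2 fold changes of 0.16 (adjusted p = 0.40) and 0.15 (adjusted p = 0.42). MPC1, a subunit of the mitochondrial pyruvate carrier, had one of -0.35 (adjusted p = 0.25, and 0.080 with the block).

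The authors' deposited table lists 10 of the 181 members under a false discovery rate of 0.05, 8 lower and 2 higher. The share of all genes under that limit was not counted, so these numbers have no background beside them. All 4 members called here are among them, and all 10 are among the 24 called with the block. In the authors' deposited table SLC16A7 is higher with a false discovery rate under that limit, as is SLC25A21.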

How the data were processed

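Per the file headers, the authors deposited raw read counts per gene without normalization, log2 CPM for each library, and their own log2 fold changes with p-values and false discovery rates, beside a gene length. The submitters' processing notes name bcl2fastq, STAR 2.5, featureCounts of Subread 1.6.5, edgeR 3.20.8 and hg38; the annotation and strand setting used are not stated in these sources. Deposited coordinates overlap GENCODE 29 for 21 of the 181 members, so positions come from GENCODE 29 by symbol.

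Counts of all 12768 genes were fitted once in edgeR 4.0.16 (R 4.3.3; TMM, filterByExpr minimum count 10, which removed 0 genes, robust quasi-likelihood, no term but group), Benjamini-Hochberg adjusted over all genes. The fitting steps were checked on simulated counts. SEs are fold changes fitted with no prior count, on the log2 scale, over the square root of F. CPM per kilobase divides TMM-scaled CPM by the deposited length. Depth makes 3 counts worth 0.19 to 0.38 CPM. The p-values set the group difference against the spread between these libraries, with each gene's variance moderated over all genes.

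Libraries with the same number were compared as deviations from their group mean. Their Pearson correlations across genes were 0.34, 0.45 and 0.17, above the 0.1 set for pairing. PRMT5 KD replicate 1 with No KD replicate 3 gave 0.23, and PRMT5 KD replicate 3 with No KD replicate 1 gave 0.20. Both exceed the 0.17 of the replicate 3 pair, so these values do not settle how replicates 1 and 3 pair. Calls with the block rest on the numbering in the sample titles. The fit without the block is the main one. Where the block changes a member's call, its adjusted p with the block is given as well. Alternatives were the block, DESeq2 1.42.0, its size factors, limma-voom (limma 3.58.1), other filters and each library left out.

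Members, classes and lists were chosen with earlier results of these data known. The text names members past the threshold, in each class the 2 with the smallest p and the 2 with the highest level, up to 10 called only with the block, and a fixed list. The other genes called with the block (SLC39A8, SLC39A14, SLC39A11, SLC40A1, SLC25A10, SLC5A3 and SLC6A9) and single genes given for a range or comparison were chosen after their values were seen. A luminal marker of the list is not reported here.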

Additional observations from a re-analysis of the deposited data

How the results depend on the processing

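Without the block 4 solute carriers were lower and 0 higher, of 189 genes called in all. The replicate block gave 14 lower, 10 higher and 1061 in all, and the replicate block without pair 2, added after the data were seen, gave 26, 16 and 2391. DESeq2 gave 2 higher and 303 in all, and DESeq2's size factors in edgeR and a filter at a mean of 5 CPM each gave 1 higher. With each library left out in turn, 0 to 6 solute carriers were lower, 0 to 4 higher and 24 to 445 genes were called; the cause was not tested. SLC16A1 and SLC1A1 passed in 9 of 13 alternatives, SLC35A5 in 8 and SLC25A17 in 6, with adjusted p up to 0.207, 0.163, 0.249 and 0.274, and each kept its direction in all 13. SLC35A5 was also lost by limma-voom. SLC30A9 turned to 0.000047 with DESeq2's size factors, 0.000024 by DESeq2 and 0.053 by the replicate block without pair 2. With a library left out, log2 fold changes near 0 changed sign for SLC30A9 (-0.053 to 0.084), SLC25A3 (-0.022 to 0.12), SLC25A5 (-0.13 to 0.019), SLC12A2 (-0.13 to 0.19), SLC4A4 (-0.020 to 0.095), SLC38A10 (-0.11 to 0.019), SLC37A3 (-0.13 to 0.17), SLC44A2 (-0.0055 to 0.092), SLC33A1 (-0.13 to 0.0071), SLC39A6 (-0.031 to 0.055), SLC30A1 (-0.021 to 0.23) and SLC19A1 (-0.014 to 0.198). Shallow libraries limit the precision of members near 1 to 3 CPM.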
